A study of Rattus norvegicus with 15 samples.

Results

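The genes described here are those that build the energy-producing chain inside the mitochondrion and the machine that translates it. They are the 13 protein genes of the rat mitochondrial genome (ND1 to ND6, ND4L, CYTB, COX1 to COX3, ATP6 and ATP8), taken by their symbols, and the nuclear genes of the mitochondrial ribosome, taken as every symbol that begins with Mrpl or Mrps followed by a number. The second rule found 77 genes, 46 with an Mrpl symbol and 31 with an Mrps symbol. Most Mrpl genes encode proteins of the large subunit and most Mrps genes proteins of the small, but a symbol is a name class: Mrps18a is known in the large subunit, and Mrps17-ps1 is listed as a pseudogene. The 90 members were drawn from a table of 37991 genes. Reads were too few to test 2 of the 77: the gene listed as Mrps21l had 2 to 9 counts per library and the pseudogene Mrps17-ps1 had at most 1. All 13 mitochondrial genome genes and 75 mitochondrial ribosome genes were therefore among the 17201 genes tested.

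RNA was sequenced from the multifidus, a deep muscle of the back, of wild type male Sprague Dawley rats aged 12 weeks. The Control group (2 libraries) had no injury, and the Surgery group (2 libraries) had the operation with nothing given afterwards. The operation was a hemilaminectomy with ligation of the left L5 spinal nerve, so that muscle injury and loss of nerve supply come together in this model. The pMT group (4 libraries) had the operation and then plasma-derived mitochondria (pMT), 25 µg in 100 µL per site and 50 µg per rat, injected into the left paraspinal muscle. The VitD group (3 libraries) had the operation and cholecalciferol, 150 µg per site and 300 µg per rat, and the pMT/VitD group (4 libraries) had both. The pMT came from the blood plasma of human volunteers and were given on day 14 after the operation, and tissue was taken on day 28. Uninjured rats were the only ones without the operation, and no sequenced group had received the SHE buffer in which pMT were suspended on its own. The labels do not say that each library is a separate rat, so the p-values below measure the spread between these libraries. Reads were aligned to the rat genome alone, so rat transcripts and any human mitochondrial transcripts cannot be told apart in these counts.

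Mitochondria keep a small genome of their own. Its protein genes encode subunits of complex I (the ND genes), complex III (CYTB), complex IV (the COX genes) and ATP synthase (ATP6 and ATP8). All of them are read from long joint transcripts that are cut into shorter messages, and neighbouring genes can stay on the same message. The messages are translated by a separate ribosome inside the organelle, whose RNA comes from the mitochondrial genome and whose proteins come from nuclear genes. Skeletal muscle is rich in mitochondria and loses them when it is denervated or immobilised.

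Total counts ranged from 52342134 to 73557878 per library. The 7 muscle fibre markers were abundant in every library, as the tissue label says. Their sum was 146991 to 160541 CPM (counts relative to the total of the library) in Control, 126344 to 129462 CPM in Surgery, 130051 to 141752 CPM in pMT, 151004 to 172602 CPM in pMT/VitD and 97791 to 135134 CPM in VitD. The 7 slow fibre markers went the other way after surgery, with 4754 to 4766 CPM in Control and 5677 to 5769.5 CPM in Surgery. They summed to 4493 to 7903 CPM in pMT, 4771 to 7782 CPM in pMT/VitD and 4738 to 5967 CPM in VitD. Surgery libraries had higher summed macrophage markers (286 and 290 CPM) than Control libraries (154 and 163 CPM). The 5 fibroblast markers summed to 4214 and 4239 CPM in Surgery against 2438 and 2467 CPM in Control, to 3552 to 6653 CPM in VitD, to 2385 to 2825 CPM in pMT and to 1799 to 2634 CPM in pMT/VitD. The 7 macrophage markers spanned 105 to 180 CPM in pMT, 96.2 to 182 CPM in pMT/VitD and 264 to 358 CPM in VitD. Of 5 red cell markers 4 were found, and they summed to 743 to 845 CPM in Control, 510 to 523 CPM in Surgery, 763 to 1340 CPM in pMT, 648 to 1578 CPM in pMT/VitD and 403 to 790 CPM in VitD. Since these are bulk samples, fewer muscle cells and less RNA per muscle cell cannot be told apart, and the part of cell mixture in the results below was not tested.

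A pair of libraries differed from the rest of their groups in the levels described here. In pMT replicate 4 the mitochondrial genome genes took 22.6% of all counts, against 11.1% to 12.9% in the other 3 pMT libraries. In pMT/VitD replicate 4 they took 11.51%, against 13.5% to 17.7% in the other 3. Libraries also differed in how expression depended on gene length, measured as the rank correlation between a gene's level relative to its mean and its length. This was -0.32 in pMT replicate 4, -0.39, -0.39 and -0.17 in pMT/VitD replicates 1 to 3, and between -0.03 and 0.45 in all other libraries. It was 0.15 in pMT/VitD replicate 4 and 0.02 to 0.45 in pMT replicates 1 to 3. In this trend each replicate 4 thus lay among replicates 1 to 3 of the other group. The mitochondrial share of pMT/VitD replicate 4 did so too, while that of pMT replicate 4 was above all pMT/VitD libraries. Labels were taken as given, and the reason was not tested. Members are short: their median length was 0.40 of the median tested gene for the mitochondrial ribosome genes and 0.32 for the mitochondrial genome genes. Results are also given without both replicates 4 and with the length trend removed. Both replicates 4 were picked in part by the mitochondrial genome share itself. Leaving out pMT/VitD replicate 4, the lowest of its group, therefore raises the calls for pMT/VitD by construction, and leaving out pMT replicate 4 lowers the pMT level in the same way. Counts and medians without them are a description and support no result.

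**Figure D1:**
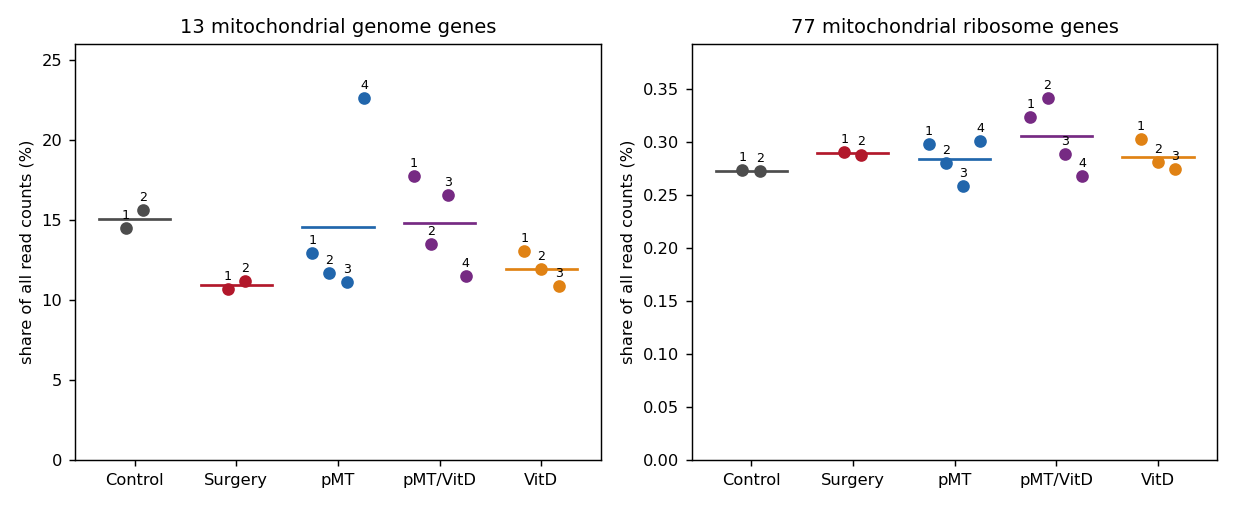
Share of all read counts (%) taken by the 13 mitochondrial genome genes (left) and the 77 mitochondrial ribosome genes (right) in each of the 15 libraries. Points are libraries with their replicate number and lines are group means. The 2 Surgery libraries (10.7% and 11.2%) lie below both Control libraries (14.5% and 15.6%) on the left, and pMT replicate 4 is far above its group.

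The 13 mitochondrial genome genes took 14.5% and 15.6% of counts in Control and 10.7% and 11.2% in Surgery. The share was 12.9%, 11.7%, 11.1% and 22.6% in pMT, 17.7%, 13.5%, 16.5% and 11.51% in pMT/VitD, and 13.03%, 11.9% and 10.9% in VitD. Surgery lay below Control without overlap, while both treated groups of 4 spanned from near the Surgery level to above Control. The 77 mitochondrial ribosome genes together took 0.273% of counts in each Control library, 0.290% and 0.288% in Surgery, 0.258% to 0.301% in pMT, 0.268% to 0.341% in pMT/VitD and 0.275% to 0.303% in VitD.

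Within the mitochondrial genome, transcripts differed widely in level. Per length, as the authors' TPM averaged over the 15 libraries, COX1, the catalytic core of complex IV, was highest at 36445. ATP6 and ATP8, neighbouring subunits of ATP synthase whose reading frames overlap, stood at 34286 and 23073, and COX3 and COX2 at 31633 and 24741. CYTB, the mitochondrial subunit of complex III, came next at 14502. The complex I genes filled the lower end, with ND1 at 12968, ND2 at 12060, ND3 at 9095, ND4 at 4240, ND4L at 3786, ND5 at 2175 and ND6, the one protein gene encoded on the opposite strand, at 546. The sum over the 13 genes was 209549 TPM, whereas the 77 mitochondrial ribosome genes summed to 3914 TPM.

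Levels by library are given for these genes in counts per 1000 counts of the library, scaled by TMM (trimmed mean of M-values, which corrects for differences in composition). COX1 ranged from 30.9 per 1000 in a Surgery library to 76.7 per 1000 in pMT replicate 4. The same libraries, Surgery replicate 1 and pMT replicate 4, bounded CYTB (8.45 to 24.3 per 1000), ATP6 (12.4 to 37.0 per 1000), ND1 (6.56 to 17.2 per 1000), ND2 (5.76 to 19.4 per 1000), COX2 (8.91 to 25.2 per 1000), COX3 (13.4 to 37.6 per 1000), ND4 (3.08 to 9.29 per 1000) and ND4L (0.503 to 1.41 per 1000). The range was 1.63 to 4.85 per 1000 for ND3, 2.22 to 5.67 per 1000 for ATP8, 1.85 to 5.18 per 1000 for ND5 and 0.148 to 0.365 per 1000 for ND6. The highest value was in pMT replicate 4 for 12 of the 13 genes, the exception being ATP8, which was highest in pMT/VitD replicate 3.

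**Figure D2:**
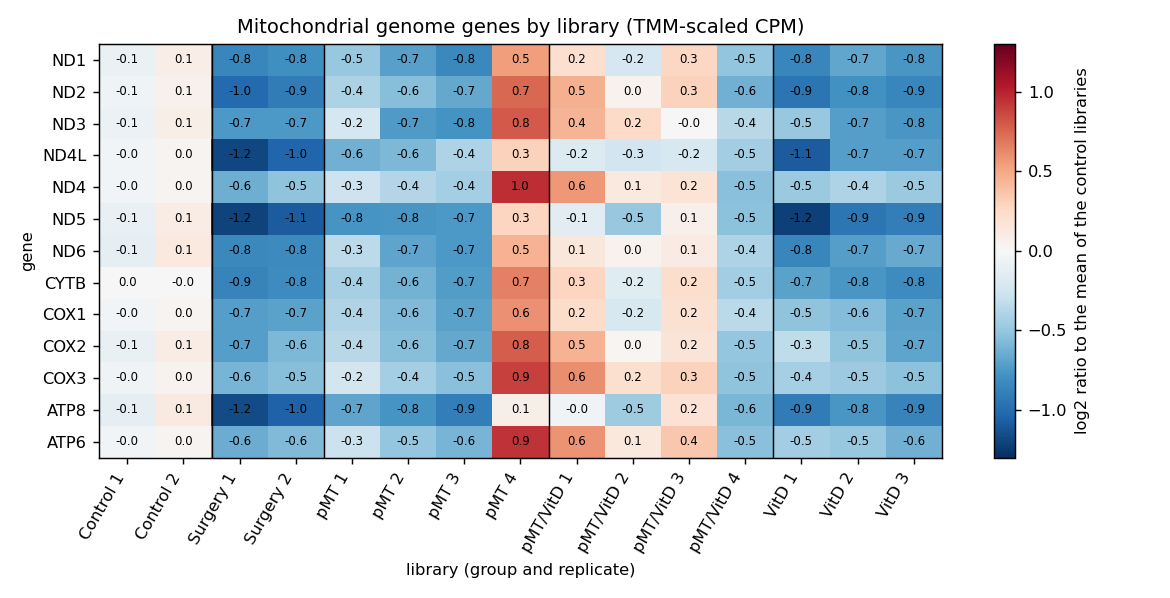
Log2 ratio of each mitochondrial genome gene (rows) in each library (columns) to the mean of the 2 Control libraries, from TMM-scaled CPM. Colour and printed numbers give the same ratio, and black lines separate the groups. Both Surgery libraries and all 3 VitD libraries are below Control for all 13 genes, and pMT replicate 4 is above it for all 13.

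The first comparison asked what the operation did to these transcripts. All 13 genes had a lower mean in Surgery than in Control, with a median log2 fold change of -0.83 and a range from -1.14 (ND5) to -0.57 (ND4). ND4L, a small complex I subunit, had 1.11 and 1.17 per 1000 in Control and 0.503 and 0.561 per 1000 in Surgery, a log2 fold change of -1.10 ± 0.26 (SE). ND5, a large proton-pumping subunit of complex I, had 4.0 and 4.58 per 1000 in Control and 1.86 and 2.02 per 1000 in Surgery. Both Surgery libraries lay below both Control libraries for all 13 genes, in a comparison where 34.4% of all genes tested were lower without overlap.

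None of the 13 passed an adjusted p under 0.05 in edgeR's quasi-likelihood test, the nearest being ND4L (edgeR adjusted p = 0.051), followed by ATP8 (edgeR adjusted p = 0.086) and ND5 (edgeR adjusted p = 0.090). The same test called 1.55% of all genes, and 7 of the 13 had an unadjusted p under 0.05, as had 2923 of all 17201 genes. DESeq2 on the same libraries called 3 of the 13, with 5.94% of all genes called. The exactTest of edgeR on the 4 libraries alone called all 13, where it called 36.3% of all genes. Without both replicates 4, 8 of the 13 were lower in Surgery with 4.17% of all genes called. Removing the length trend gave a median of -0.80 and 3 calls, with 3.15% of all genes called.

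The share of a gene among the 13 did not overlap between these groups for 9 of the 13 genes. With 2 libraries per group such separation was common. In scaled level, 34.4% of all genes tested were lower and 31.7% higher without overlap. It was lower in Surgery for 6 (CYTB, ND1, ND2, ATP8, ND4L and ND5) and higher for 3 (ATP6, ND4 and COX3), and it overlapped for COX1, COX2, ND3 and ND6. ND5 held 2.55% and 2.73% of mitochondrial genome counts in Control and 1.94% and 2.02% in Surgery. ATP8 held 2.93% and 3.21% in Control and 2.32% and 2.41% in Surgery, and ND2 held 7.08% and 7.18% against 6.02% and 6.17%. COX3 went the other way, with 12.6% and 12.4% in Control and 13.96% and 13.9% in Surgery, whereas COX1 held 31.7% and 31.1% against 32.2% and 31.5%, which overlap. These shares sum to a fixed total, so that a lower share of some genes goes with a higher share of others, and they were not tested. How reads were assigned between neighbouring genes, such as ATP8 and ATP6 or ND4L and ND4, is not given in the sources used here.

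Injection of pMT was compared with surgery alone. The 13 mitochondrial genome genes had higher means in pMT, with a median log2 fold change of 0.65 and a range from 0.54 (COX1) to 0.86 (ND2). ND2, a membrane subunit of complex I, had 5.76 and 6.16 per 1000 in Surgery and 8.67, 7.87, 7.29 and 19.4 per 1000 in pMT. ND4L had 0.744, 0.761, 0.863 and 1.41 per 1000 in pMT, a log2 fold change of 0.83 ± 0.23 (SE). The pMT libraries all lay above both Surgery libraries for 8 of the 13 genes, against 13.2% of all genes, and for the other genes at least 1 pMT library was within or below the Surgery values.

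None of the 13 passed the threshold (lowest edgeR adjusted p = 0.093, for ND4L), in a test that called 1.94% of all genes. An unadjusted p under 0.05 was found for 4 of the 13 and for 2455 of all 17201 genes. DESeq2 called 1 and exactTest 0 of the 13, where these tools called 4.34% and 7.10% of all genes. The size of the difference rested on 1 library: without pMT replicate 4 the median was 0.21, and without both replicates 4 it was 0.20, with ND4L alone called (3.15% of all genes called).

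The pMT/VitD group had higher means than Surgery for all 13 genes, with a median log2 fold change of 0.82 and a range from 0.70 (COX1) to 1.06 (ND2). ND4L rose, with 1.01, 0.961, 0.993 and 0.834 per 1000 in pMT/VitD against 0.503 and 0.561 per 1000 in Surgery, a log2 fold change of 0.84 ± 0.23 (SE; edgeR adjusted p = 0.044). It was the only one of the 13 called, where 7.44% of all genes were called, 413 higher and 866 lower. Of the 13, 9 had an unadjusted p under 0.05, as had 4268 of all 17201 genes. For 12 of the 13 genes every pMT/VitD library was above both Surgery libraries, against 16.6% of all genes, and the exception was ND4, which had 3.27 per 1000 in pMT/VitD replicate 4 and 3.33 per 1000 in Surgery replicate 2.

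The ND4L call was lost when Surgery replicate 1 or 2 was left out (0.727% and 0.687% of all genes called), when pMT/VitD replicate 1, 2 or 3 was left out (3.98%, 3.48% and 5.63%), and with the replicate number as a block (2.03%). Without pMT/VitD replicate 4 the count was 4, with 12.8% of all genes called, and without both replicates 4 all 13 genes were called higher, with a median of 0.95 and 20.1% of all genes called. With the length trend removed the median was 0.55 and 2 of the 13 were called, with 10.5% of all genes called.

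VitD alone was next compared with surgery. The median log2 fold change of the 13 genes was 0.10, with a range from 0.07 (ND1) to 0.28 (ND4L), and no mitochondrial genome gene was called by edgeR, where 0% of all genes were called. None of the 13 had an unadjusted p under 0.05, and DESeq2 and exactTest called 0. COX1 had 35.3, 34.3 and 31.5 per 1000 in VitD and 30.9 and 31.5 per 1000 in Surgery, so the groups touched.

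Compared with Control, VitD was lower for all 13 genes without overlap, against 27.1% of all genes, with a median log2 fold change of -0.74. ND5 fell, with 1.85, 2.24 and 2.30 per 1000 in VitD against 4.0 and 4.58 per 1000 in Control, by 1.01 on the log2 scale with an SE of 0.29 (edgeR adjusted p = 0.045). ND4L fell, with 0.541, 0.697 and 0.696 per 1000 in VitD, by 0.83 with an SE of 0.23 (edgeR adjusted p = 0.043). These 2 were called of the 13, where 8.67% of all genes were called. Both calls were lost without Control replicate 1 or 2 (0.0731% and 0.163% of all genes called) and without VitD replicate 1 or 2 (3.58% and 4.51%). When both replicates 4 were left out there were 10 calls, with 15.1% of all genes called.

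The next comparison asked what pMT added to VitD. All 13 genes had higher means in pMT/VitD than in VitD, with a median log2 fold change of 0.71 and a range from 0.56 (ND4L) to 0.96 (ND2). Calls were made for ND5 (0.76 ± 0.25 SE, edgeR adjusted p = 0.044), ND6 (0.73 ± 0.24 SE, edgeR adjusted p = 0.044) and ND2 (0.96 ± 0.32 SE, edgeR adjusted p = 0.046). ND6, a complex I subunit, had 0.295, 0.275, 0.288 and 0.201 per 1000 in pMT/VitD and 0.148, 0.162 and 0.17 per 1000 in VitD. ND2 had 15.9, 11.9, 14.2 and 7.49 per 1000 in pMT/VitD and 6.0, 6.69 and 6.42 per 1000 in VitD.

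Every pMT/VitD library was above every VitD library for 9 of the 13 genes, these 3 among them, against 13% of all genes. Of all genes, 21.9% were called in this comparison, 1662 higher and 2104 lower, while the 3 called of the 13 were all higher. No gene of the 13 was called when pMT/VitD replicate 1, 2 or 3 was left out (16.8%, 15.6% and 18.8% of all genes called) or VitD replicate 1, 2 or 3 (10.9%, 14.7% and 22.5%). None was called with scaling by library size alone (33.5%) or with the replicate number as a block (15.7%). Without pMT/VitD replicate 4, 6 were called (26.5%), and all 13 without both replicates 4 (32.0% of all genes called).

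The remaining comparisons gave no calls. Between pMT/VitD and pMT the median log2 fold change of the 13 was 0.17, no gene of the whole table was called by edgeR (0%), none of the 13 had an unadjusted p under 0.05, and DESeq2 and exactTest called 0 of them. The median was -0.01 with the length trend removed. With both replicates 4 removed it was 0.72 and 12 of the 13 were called, with 18.3% of all genes called, and without pMT replicate 4 alone it was 0.59. Against Control, the median was -0.16 for pMT and 0.00 for pMT/VitD (-0.07 with scaling by library size alone). In both of these edgeR called 0% of all genes, 0 of the 13 had an unadjusted p under 0.05, and DESeq2 and exactTest called 0 of the 13. Without pMT replicate 4 the median of pMT against Control was -0.55.

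Since the comparisons above share libraries, their values are set side by side and not as independent results. In a single test for any difference among the 5 groups, 5 of the 13 had an unadjusted p under 0.05, as had 4508 of all 17201 genes. It called ND4L alone of the 13 (edgeR adjusted p = 0.031), with 11.8% of all genes called. That call was lost without either Control library, either Surgery library, any of pMT/VitD replicates 1 to 3, or VitD replicate 1 or 2. Without pMT replicate 4 there were 9 calls (15.7% of all genes called) and without pMT/VitD replicate 4 there were 3 (16.0%). The test of whether pMT acted differently with VitD than without it called 0% of all genes and 0 of the 88 tested members. In that test no mitochondrial genome gene had an unadjusted p under 0.05.

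**Figure D3:**
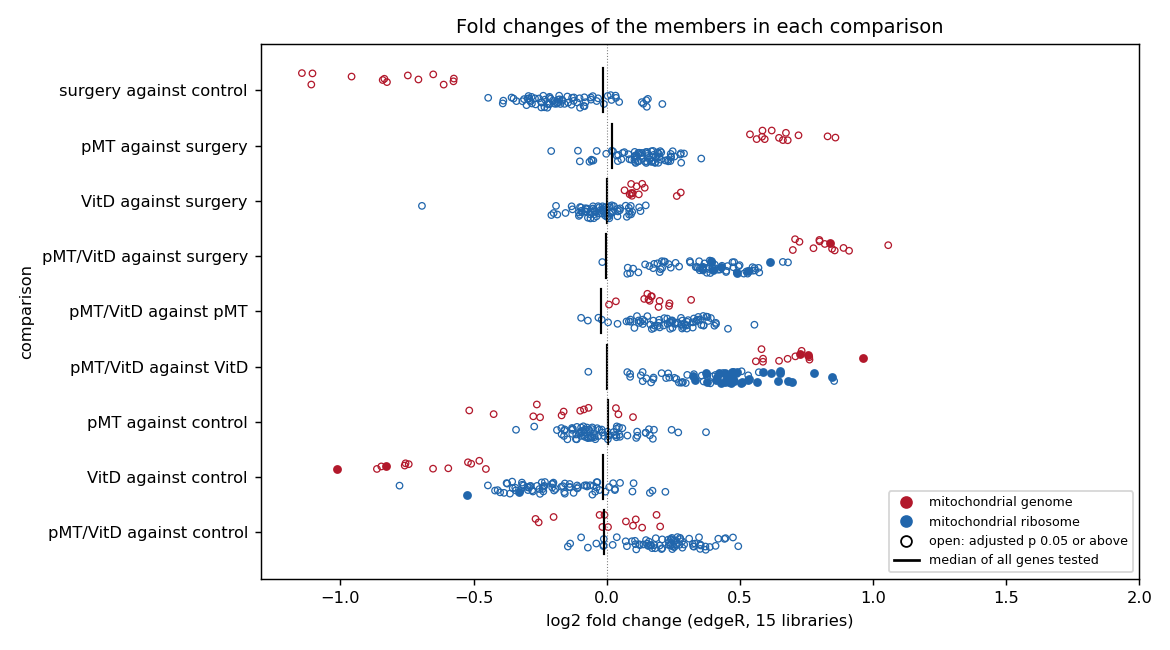
Log2 fold changes from edgeR of the 13 mitochondrial genome genes (red) and the 75 tested mitochondrial ribosome genes (blue) in the 9 comparisons, one row each. Filled points passed an adjusted p under 0.05, and the black bar marks the median of all 17201 genes. The mitochondrial genome genes lie to the left in Surgery against Control (median -0.83) and in VitD against Control (median -0.74), and most filled points are in pMT/VitD against VitD.

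The mitochondrial ribosome genes were expressed far below the transcripts they serve. Per length, Mrpl54 was highest with a mean of 313 TPM, followed by Mrpl15 with 175, Mrpl33 with 134, Mrps36 with 131 and Mrps21 with 121. Mrpl54, Mrpl15 and Mrpl33 are proteins of the large subunit and Mrps21 of the small. Mrps36 has a ribosomal name but is also known as a subunit of the 2-oxoglutarate dehydrogenase complex. The lowest tested member was Mrps2, a small subunit protein, with 8.15 TPM, and the median of the 77 was 42.7 TPM.

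Promoters are shown for 3 members that rose in pMT/VitD in the comparisons below. Nuclear genes of mitochondrial proteins are known targets of the factors NRF1, GABP (also called NRF2) and YY1, and cores of their motifs were searched on both strands. The cores were GCGCATGC for NRF1, CCGGAAG for GABP and AAGATGGC for YY1. The NRF1 core overlaps its own reverse complement GCATGCGC, and no core contains another. Windows of 300 bases, 250 before the start of transcription and 50 after it, came from RefSeq on assembly GRCr8. There were 63 windows of members. A gene such as Mrpl14 had several, and not every one of the 77 members had a window. Mrpl15, Mrpl38 and Mrpl43, which were also called higher in pMT/VitD against Surgery, had none.

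Each sequence runs 5′ to 3′ along the gene, with motif cores in capitals. Mrps18b lies on the plus strand at chr20:2842756-2843055, Mrps18a on the minus strand at chr9:22367331-22367630, and Mrpl4 on the plus strand at chr8:27815521-27815820.
Mrps18b: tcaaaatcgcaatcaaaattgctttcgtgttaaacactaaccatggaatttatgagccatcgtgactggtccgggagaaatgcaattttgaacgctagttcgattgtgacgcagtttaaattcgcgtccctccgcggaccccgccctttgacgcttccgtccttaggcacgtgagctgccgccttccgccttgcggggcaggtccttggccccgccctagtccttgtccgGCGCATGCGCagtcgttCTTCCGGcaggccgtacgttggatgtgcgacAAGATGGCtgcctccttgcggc
Mrps18a: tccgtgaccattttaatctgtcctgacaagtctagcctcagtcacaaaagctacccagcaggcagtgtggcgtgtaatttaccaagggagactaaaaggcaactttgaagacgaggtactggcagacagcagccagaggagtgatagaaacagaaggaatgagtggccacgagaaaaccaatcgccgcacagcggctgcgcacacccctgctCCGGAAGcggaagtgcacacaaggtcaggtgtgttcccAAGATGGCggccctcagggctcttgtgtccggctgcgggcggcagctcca
Mrpl4: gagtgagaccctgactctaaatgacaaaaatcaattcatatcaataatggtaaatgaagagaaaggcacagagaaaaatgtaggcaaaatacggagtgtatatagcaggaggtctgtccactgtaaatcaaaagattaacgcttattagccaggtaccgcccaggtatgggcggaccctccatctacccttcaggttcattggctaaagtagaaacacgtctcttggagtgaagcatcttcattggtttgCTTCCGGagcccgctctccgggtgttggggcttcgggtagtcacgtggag

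The Mrps18b promoter held the NRF1 core on both strands in overlapping letters, then GABP on the reverse strand and YY1 on the forward strand. The Mrps18a promoter held GABP and YY1, and the Mrpl4 promoter held GABP alone on the reverse strand. Over the 63 windows of members the GABP core was found in 21 (33.3%), the YY1 core in 15 (23.8%) and the NRF1 core in 5 (7.94%). Among 33469 windows of the same length the shares were 8.75%, 3.17% and 2.47%. These are matches of letters and do not say that a factor was bound.

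After surgery, 63 of the 75 tested mitochondrial ribosome genes had a lower mean than in Control and 12 a higher one, with a median log2 fold change of -0.18 (0.09 with scaling by library size alone) beside -0.01 for all genes tested. The lowest was Mrps5, a small subunit protein near the entry of the messenger, with 48.8 and 46.8 CPM in Control and 36.2 and 34.0 CPM in Surgery, a log2 fold change of -0.45 ± 0.14 (SE; edgeR adjusted p = 0.12). Mrpl40 of the large subunit followed, at -0.39 ± 0.14 (SE; edgeR adjusted p = 0.16). Both Surgery libraries were below both Control libraries for 52 of the 75, where 34.4% of all genes were. None was called by edgeR, and 6 had an unadjusted p under 0.05, as had 2923 of all 17201 genes. DESeq2 called 1 and exactTest on these 4 libraries called 27, with 5.94% and 36.3% of all genes called by these tools.

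The direction of this median depended on the scaling: with library size alone it was 0.09, where the median of all genes moved to 0.25. Relative to all genes it was then -0.17. The median changed sign in the same way in VitD against Control (0.08, with all genes at 0.27), pMT against Control (0.05, with all genes at 0.13) and pMT against Surgery (-0.01, with all genes at -0.12). In pMT/VitD against Surgery it was 0.05 with all genes at -0.32, and in pMT/VitD against VitD 0.06 with all genes at -0.34. Relative to all genes these medians were -0.19, -0.08, 0.11, 0.37 and 0.40, in the order given.

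In pMT against Surgery the median log2 fold change of the mitochondrial ribosome genes was 0.15 (-0.01 with scaling by library size alone), 66 of 75 had a higher mean, and 13 of 75 were higher in every pMT library, against 13.2% of all genes. The smallest unadjusted p-values belonged to Mrps31, with a log2 fold change of 0.35 ± 0.16 (SE; edgeR adjusted p = 0.33), and Mrpl4, with 0.24 ± 0.11 (SE; edgeR adjusted p = 0.35). Those were the 2 genes with an unadjusted p under 0.05, against 2455 of all 17201 genes. None of the 75 was called by edgeR, DESeq2 or exactTest. Without both replicates 4 the median was 0.02.

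In pMT/VitD, 74 of the 75 had a higher mean than in Surgery, with a median log2 fold change of 0.38. The median was 0.38 over the 46 Mrpl genes and 0.39 over the 29 tested Mrps genes. Of the 75, 6 were called higher and 0 lower, close to the 7.44% of all genes called in either direction. Of all 17201 genes, 413 were called higher and 866 lower. An unadjusted p under 0.05 was found for 39 of the 75 and for 4268 of all genes. Every pMT/VitD library was above both Surgery libraries for 38 of the 75, against 16.6% of all genes.

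Mrpl43, a large subunit protein, had 36.3, 36.7, 34.0 and 29.0 CPM in pMT/VitD and 24.3 and 24.1 CPM in Surgery. It rose by a log2 fold change of 0.49 ± 0.11 (SE; edgeR adjusted p = 0.015). Mrps18b, one of the small subunit proteins of the bS18 family, had 73.1, 86.3, 60.3 and 67.6 CPM against 49.2 and 50.1 CPM and rose by 0.53 ± 0.14 (SE; edgeR adjusted p = 0.034). For both genes each pMT/VitD library was above both Surgery libraries, with replicate 4 the lowest of Mrpl43.

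Mrps18a, of the same family but a component of the large subunit, had 48.9, 48.5, 49.3 and 40.4 CPM against 34.7 and 34.8 CPM and rose by 0.43 ± 0.11 (SE; edgeR adjusted p = 0.037). Mrpl38 rose from 27.9 and 30.5 CPM to 42.5, 40.7, 34.7 and 36.2 CPM, Mrpl4 from 56.3 and 54.9 CPM to 71.8, 81.4, 69.9 and 68.6 CPM, and Mrpl15 from 121 and 118 CPM to 211, 206, 167 and 146 CPM. Log2 fold changes were 0.40, 0.39 and 0.61, with edgeR adjusted p from 0.041 to 0.048. No group values overlapped for these genes.

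None of the 6 calls held when either Surgery library was left out, where 0.727% and 0.687% of all genes were called. The number called was 1 without pMT/VitD replicate 1 or 2 (3.98% and 3.48% of all genes), 3 without replicate 3 (5.63%), and 25 without replicate 4 (12.8%). It was 0 with scaling by library size alone, where 18.9% of all genes were called, and 0 with the replicate number as a block (2.03%). When both replicates 4 were left out, 57 of the 75 were called, with 20.1% of all genes called. With the length trend removed the median was 0.23 and 12 were called, with 10.5% of all genes called, and 2 of these were among the 6.

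The number of calls was highest between pMT/VitD and VitD. In pMT/VitD 74 of 75 had a higher mean, and the median log2 fold change was 0.41. Of the 75, 33 were called higher, 20 Mrpl and 13 Mrps genes. Of all 17201 genes 21.9% were called, 1662 higher and 2104 lower. In the same comparison 4 of 4 red cell markers and 2 of 7 muscle fibre markers were called higher, and 4 of 5 fibroblast and 6 of 7 macrophage markers lower, and their part in the result was not tested. Mrpl43 had 24.9, 23.9 and 24.8 CPM in VitD, and its log2 fold change was 0.47 ± 0.09 (SE; edgeR adjusted p = 0.0033). Mrpl38 had 27.1, 28.4 and 27.9 CPM in VitD (0.47 ± 0.10 SE, edgeR adjusted p = 0.0042), and Mrpl4 had 47.2, 53.2 and 57.9 CPM (0.47 ± 0.10 SE, edgeR adjusted p = 0.0048). For all 3 genes every pMT/VitD library was above every VitD library, as for 34 of the 75, against 13% of all genes.

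Mrpl54, the highest of the set per length, had 226, 243, 182 and 142 CPM in pMT/VitD and 102, 111 and 118 CPM in VitD, a rise of 0.85 ± 0.20 on the log2 scale (SE; edgeR adjusted p = 0.0083). Leaving out pMT/VitD replicate 1 or 2 left 14 and 13 calls (16.8% and 15.6% of all genes called), and leaving out replicate 3 left 24 (18.8%). Leaving out VitD replicate 1, 2 or 3 left 13, 13 and 17 (10.9%, 14.7% and 22.5%), and leaving out pMT/VitD replicate 4 gave 52 (26.5%). With scaling by library size alone there were 4 calls, where 33.5% of all genes were called, and with the replicate number as a block there were 14 (15.7%). With both replicates 4 removed there were 60 calls, with 32.0% of all genes called. With the length trend removed the median was 0.22, with 34 calls where 25.4% of all genes were called, and 29 of these were among the 33.

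VitD lay below Control for 65 of the 75, with a median of -0.20 (0.08 with scaling by library size alone), and for 50 of them without overlap, against 27.1% of all genes. Mrps5 fell, with 26.6, 35.7 and 37.3 CPM in VitD against 48.8 and 46.8 CPM in Control, by 0.53 on the log2 scale with an SE of 0.13 (edgeR adjusted p = 0.023). Mrpl3, a core protein of the large subunit, fell from 60.4 and 65.9 CPM to 49.1, 48.9 and 52.6 CPM, by 0.33 with an SE of 0.10 (edgeR adjusted p = 0.047). These were the 2 of 75 called, both lower, where 8.67% of all genes were called, 942 higher and 550 lower. An unadjusted p under 0.05 was found for 10 of the 75, all lower, and for 4432 of all 17201 genes, 2452 higher and 1980 lower.

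Both calls were lost without Control replicate 1 or 2, where 0.0731% and 0.163% of all genes were called. There was 1 call without VitD replicate 1 or 2 (3.58% and 4.51%), and there were 4 without VitD replicate 3. Without both replicates 4 there were 6 calls, with 15.1% of all genes called. After removal of the length trend there were 10, with 13.8% of all genes called.

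Between VitD and Surgery the median was -0.03, no gene was called (0% of all genes), 0 of the 75 had an unadjusted p under 0.05, and DESeq2 and exactTest called 0. The smallest unadjusted p-values were those of Mrps2, with a log2 fold change of 0.15 ± 0.13 (SE), and Mrps12, a small subunit protein of the decoding site, with -0.20 ± 0.20 (SE), both at an edgeR adjusted p of 1.

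Between pMT/VitD and pMT, 71 of 75 had a higher mean, with a median of 0.25. An unadjusted p under 0.05 was found for 23 of the 75 and for 1737 of all 17201 genes. The edgeR test called none (0% of all genes), DESeq2 called 1 (1.18% of all genes) and exactTest 0. Mrpl43 had 27.4, 26.2, 25.4 and 28.7 CPM in pMT, all below the 4 pMT/VitD values (log2 fold change 0.34 ± 0.08 SE, edgeR adjusted p = 0.45). Such a separation was found for 4 of the 75, against 2.46% of all genes. Mrpl54 had 137, 120, 104 and 180 CPM in pMT, so that pMT replicate 4 was above the lowest pMT/VitD library (0.55 ± 0.18 SE, edgeR adjusted p = 0.45). The median was 0.09 with the length trend removed, and the log2 fold changes of Mrpl43 and Mrpl54 were 0.06 and 0.28. When both replicates 4 were left out the median was 0.48 and 57 of 75 were called, with 18.3% of all genes called.

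Against Control the median was -0.05 for pMT (0.05 with scaling by library size alone) and 0.23 for pMT/VitD, and edgeR called 0% of all genes in both. For pMT, 3 of the 75 had an unadjusted p under 0.05, as had 528 of all 17201 genes. The 3 were led by Mrps5 (log2 fold change -0.34 ± 0.12 SE) and Mrps27 (-0.27 ± 0.10 SE), both at an edgeR adjusted p of 1. For pMT/VitD it was 8 of the 75 and 496 of all genes. The 8 were led by Mrps34 (0.41 ± 0.17 SE) and Mrps16 (0.47 ± 0.20 SE), both at an edgeR adjusted p of 0.91. DESeq2 and exactTest called 0 of the 75 in both comparisons.

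The test for any difference among the 5 groups called 7 of the 75, close to the 11.8% of all genes called. An unadjusted p under 0.05 was found for 24 of the 75 and for 4508 of all 17201 genes. The 7 called were Mrpl43 (edgeR adjusted p = 0.011), Mrps5 (edgeR adjusted p = 0.018), Mrpl38, Mrpl4, Mrps18b, Mrps18a and Mrpl54. The count was at most 4 without replicate 1 or 2 of pMT, pMT/VitD or VitD, where 6.95% to 9.36% of all genes were called. It also fell without either Control or Surgery library, where a group keeps 1 library. The count was 22 without pMT replicate 4 (15.7% of all genes called) and 22 without pMT/VitD replicate 4 (16.0%). In the test of whether pMT acted differently with VitD, 6 of the 75 and 888 of all genes had an unadjusted p under 0.05, and none was called. The largest of the 6 was Mrpl54, at 0.74 ± 0.29 (SE) on the log2 scale (edgeR adjusted p = 0.90).

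Mrps28, a small subunit protein, was listed at 0 counts in pMT/VitD replicate 4 and in VitD replicate 2, and at 810 to 1079 counts in the other 13 libraries. No other gene of the table was at 0 in those libraries and at 100 or more in all others. It was tested, but its fold changes rest on these zeros and are not given. They also lower the mean of the tested mitochondrial ribosome genes of both libraries in the plot of levels against the length trend, and the cause was not tested.

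**Figure D4:**
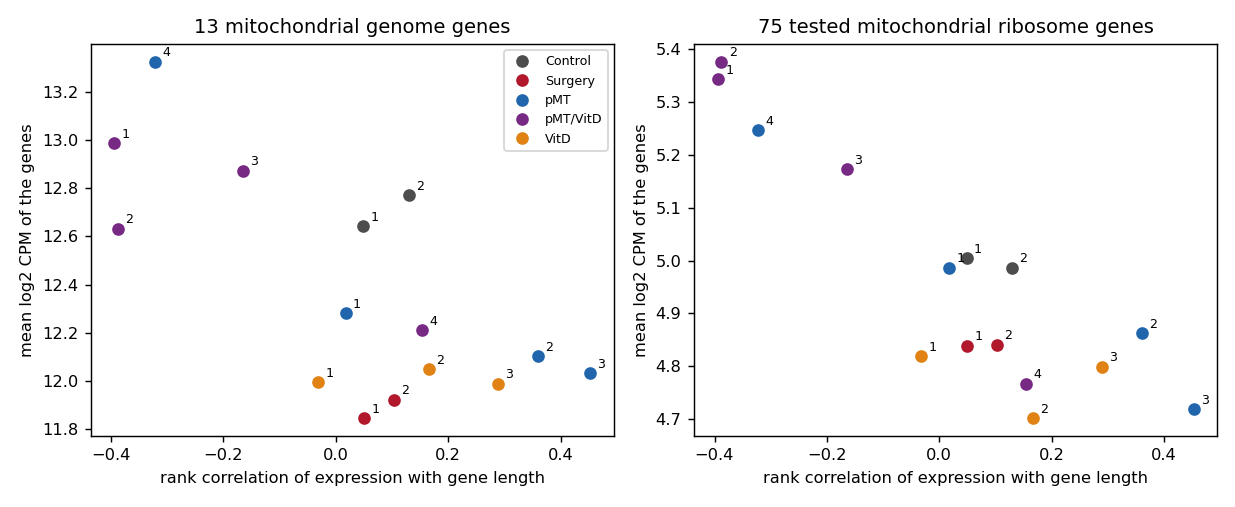
Mean log2 CPM of the mitochondrial genome genes (left) and the tested mitochondrial ribosome genes (right) in each library, against that library's rank correlation between relative expression and gene length. Points are libraries, coloured by group and marked with the replicate number. The 4 libraries with a correlation between -0.39 and -0.17 (pMT replicate 4 and pMT/VitD replicates 1 to 3) hold the 4 highest values on the right.

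The length trend moved with the mitochondrial ribosome level, and its part in the results was not tested beyond the fit that removes it. The 4 libraries in which short genes were relatively high had mean levels of 5.25, 5.34, 5.38 and 5.17 log2 CPM, and the other 11 had 4.70 to 5.004. For the mitochondrial genome genes the same 4 had 13.3, 12.99, 12.6 and 12.9 log2 CPM. Control libraries, with correlations of 0.05 and 0.13, had 12.6 and 12.8 log2 CPM, and Surgery libraries, with 0.05 and 0.10, had 11.8 and 11.9 log2 CPM.

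**Figure D5:**
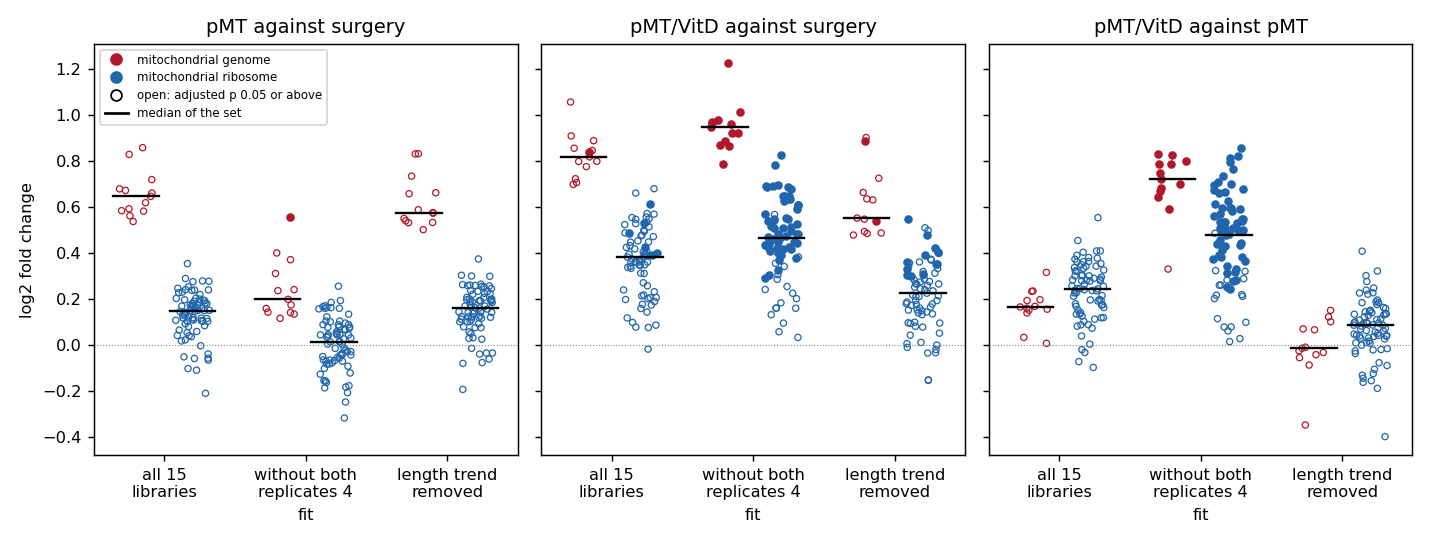
Log2 fold changes of the mitochondrial genome genes (red) and mitochondrial ribosome genes (blue) in 3 comparisons, each from 3 fits: all 15 libraries, without both replicates 4, and all libraries with the length trend removed. Filled points passed an adjusted p under 0.05 and bars are medians. In pMT against Surgery the medians are 0.65, 0.20 and 0.58 for the mitochondrial genome, and in pMT/VitD against pMT they are 0.17, 0.72 and -0.01.

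The machinery around these genes was read from lists of 15 genes of mitochondrial DNA transcription and replication, 18 of RNA processing, 24 of mitochondrial ribosome assembly, 14 of translation factors and 20 of aminoacyl-tRNA synthetases, all tested. A further list held 5 proteins of the mitochondrial ribosome with other symbols (Dap3, Ptcd3, Chchd1, Aurkaip1 and Gadd45gip1). Their most abundant members per length were Tfam (44.1 TPM), which packages and transcribes the mitochondrial genome, Hsd17b10 (106 TPM), a subunit of the enzyme that cuts tRNA ends, C1qbp (167 TPM), Oxa1l (63.9 TPM), an insertase of the inner membrane, Gatc (32.8 TPM) and Chchd1 (157 TPM). Between Surgery and Control, pMT and Surgery, VitD and Surgery, pMT/VitD and pMT, and pMT or pMT/VitD and Control, edgeR called 0 genes of the 6 lists.

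In pMT/VitD against VitD the assembly factors had 7 of 24 called higher, with a median log2 fold change of 0.27. The smallest p-values were those of Mtg1 (0.55 ± 0.10 SE, edgeR adjusted p = 0.0023) and Mtg2 (0.61 ± 0.11 SE, edgeR adjusted p = 0.0023), GTPases of large subunit assembly, and Rpusd3 (0.50 ± 0.12 SE, edgeR adjusted p = 0.011), a pseudouridine synthase. RNA processing had 5 of 18 called higher with a median of 0.18, led by Fastk (0.53), Ptcd2 (0.45) and Hsd17b10 (0.48). The translation factors had 4 of 14 called higher, led by Guf1 (0.49), Mtrf1l (0.45) and Tufm (0.28), the mitochondrial elongation factor Tu. These shares are of genes called higher, while the 21.9% of all genes called holds both directions.

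Of the other lists in that comparison, the synthetases had 3 of 20 called higher, with Yars2 (0.56) first, and Nars2 called lower (-0.33). The list of proteins with other symbols had 2 of 5, Gadd45gip1 (0.77) and Chchd1 (0.65), and mitochondrial DNA transcription and replication had Polrmt (0.46), the mitochondrial RNA polymerase, alone of 15. In pMT/VitD against Surgery, 3 genes over all lists were called higher, Mtg2 (0.49), Mtg1 (0.42) and Guf1 (0.47), where 7.44% of all genes were called. In that comparison 1 of 4 red cell markers was called higher and 6 of 7 macrophage and 3 of 5 fibroblast markers lower, and their part was not tested. In VitD against Control, Fastk (-0.46) and Mtg1 (-0.48) were called lower, where 8.67% of all genes were called.

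The nuclear genes of the respiratory chain give the other side of the comparison, since complexes I, III, IV and ATP synthase need both genomes. The median log2 fold change of 84 such genes was -0.15 in Surgery against Control, 0.16 in pMT against Surgery, 0.44 in pMT/VitD against Surgery and 0.49 in pMT/VitD against VitD. The mitochondrial genome medians beside them were -0.83, 0.65, 0.82 and 0.71. Called genes of the 84 numbered 0, 0, 0 and 23, where 1.55%, 1.94%, 7.44% and 21.9% of all genes were called. An unadjusted p under 0.05 was found for 1, 0, 34 and 62 of the 84, and for 2923, 2455, 4268 and 6123 of all 17201 genes. Mitochondrial genome genes took 87.0% and 88.2% of the counts of both kinds of respiratory genes in Control, 82.2% and 83.1% in Surgery and 83.2% to 84.9% in VitD. In pMT the share was 84.4%, 84.4%, 84.8% and 90.0%, and in pMT/VitD 87.2%, 83.1%, 87.7% and 84.6%.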

How the data were processed

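Per the labels and the study's methods, adapters and poor bases were removed (Trimmomatic 0.38), and HISAT2 2.1.0, SAMtools 1.9 and StringTie 2.1.3b gave gene values on rn6 with RefSeq annotation. The authors deposited raw read counts per gene, used for all tests, TPM, used for levels per length and for relative length (mean count over mean TPM), and FPKM, not used here. How strand and reads that align to several places were handled is not given in the sources used here, so overlapping mitochondrial genes, pseudogene copies and antisense pairs are uncertain.

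Groups came from the labels. Genes kept by filterByExpr were tested over 15 libraries in R 4.3.3 with edgeR 4.0.16 (TMM, robust glmQLFit, quasi-likelihood F-test), with Benjamini-Hochberg adjustment over all genes tested and a threshold of 0.05. The length trend was removed with a lowess curve (span 0.3) per library. Alternatives included DESeq2 1.42.0. On simulated counts for pMT/VitD against Surgery (16934 genes) the test recovered 61% of 100 genes changed 2-fold and 91% of 100 changed 4-fold, with 3 false calls.

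The members and lists were chosen with earlier results of these data known. Named are all 13 mitochondrial genome genes, the 5 mitochondrial ribosome genes highest per length, up to 3 called per comparison and direction by smallest p (or the 2 smallest unadjusted p), and up to 3 called per list. Mrpl15, Mrpl38, Mrpl4, Mrpl54 and Mrps5 beyond that rule, Mrps28 and the lowest gene, Mrps2, were added after their values were seen. Gene IDs matched the GRCr8 table for 77 members, none of them of the mitochondrial genome.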

Additional observations from a re-analysis of the deposited data

Results flagged for a closer look

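Of 70 sets of values from the groups of 4 libraries, 13 had 1 library far from the other 3 by Dixon's criterion, where chance gives about 1 in 20, or 3.5. In pMT replicate 4 this held for 12. Mitochondrial genome genes took 22.6% of counts there against 11.1% to 12.9%, and 90.0% of the counts of mitochondrial and nuclear respiratory genes against 84.4% to 84.8%. The scaled counts per 1000 were 24.3 for CYTB, 17.2 for ND1, 19.4 for ND2, 76.7 for COX1, 5.26 for ATP8, 37.0 for ATP6, 25.2 for COX2, 9.29 for ND4, 5.18 for ND5 and 37.6 for COX3. These genes come from joint transcripts and are not independent of each other.

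In pMT/VitD replicate 4, Mrps18a had 40.4 CPM against 48.5 to 49.3 CPM in the other 3 libraries.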

How the results depend on the processing

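Alternatives other than leaving out single libraries left 286 values close to those reported and moved 62. The numbers below count genes called in the mitochondrial genome set (mt) and the mitochondrial ribosome set (MRP), and the causes of the moves were not tested. Both replicates 4 were picked in part by the mt share itself, so the counts without them support no result. Without them, Surgery against Control gave 8 mt and pMT against Surgery 1 mt (median 0.20), with 4.17% and 3.15% of all genes called. There were 13 mt and 57 MRP in pMT/VitD against Surgery (20.1%). In pMT/VitD against pMT there were 12 mt (median 0.72) and 57 MRP (median 0.48), with 18.3% of all genes. There were 13 mt and 60 MRP in pMT/VitD against VitD (32.0%), and 10 mt and 6 MRP in VitD against Control (15.1%). Any difference gave 13 mt and 57 MRP (29.8%). The interaction of pMT and VitD gave 7 members, and its share of all genes is not given here. DESeq2 gave 3 mt and 1 MRP in Surgery against Control, 1 mt in pMT against Surgery, 6 mt and 15 MRP in pMT/VitD against Surgery, 1 MRP in pMT/VitD against pMT, 8 mt in pMT/VitD against VitD and 5 MRP in VitD against Control, where it called 5.94%, 4.34%, 14.5%, 1.18%, 28.1% and 14.4% of all genes. The exactTest on 2 groups gave 13 mt and 27 MRP in Surgery against Control, 9 mt in pMT/VitD against Surgery, 11 mt in pMT/VitD against VitD, and 9 mt and 1 MRP in VitD against Control (36.3%, 10.8%, 17.9% and 12.9% of all genes). With the length trend removed there were 3 mt in Surgery against Control (3.15% of all genes) and 2 mt and 12 MRP in pMT/VitD against Surgery (10.5%). The same fit gave 10 MRP in VitD against Control (13.8%), and 5 mt and 13 MRP for any difference (16.1%). Library size alone gave 3 mt in Surgery against Control, 0 MRP in pMT/VitD against Surgery, 0 mt and 4 MRP in pMT/VitD against VitD, 1 MRP in VitD against Control and 0 MRP for any difference (5.80%, 18.9%, 33.5%, 16.2% and 20.8% of all genes). Its MRP medians were 0.086 in Surgery against Control, 0.045 in pMT/VitD against Surgery, 0.058 in pMT/VitD against VitD and 0.084 in VitD against Control. Without a filter on counts there were 0 mt and 2 MRP in pMT/VitD against Surgery (3.86% of all genes) and 0 mt in pMT/VitD against VitD (13.1%). It gave 1 mt and 1 MRP in VitD against Control (4.82%). A minimum count of 10 in every library gave 1 mt in Surgery against Control (2.24%). RLE size factors, and a library size from nuclear genes only, each gave 1 MRP in VitD against Control (9.03% and 8.98%). The interaction was repeated under these settings after the data were seen.

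Of 24 pairs of libraries with the same replicate number, 2 had a correlation of deviations from the group mean over 0.1. The range was from -0.50, for both replicates 4, to 0.17. In groups of 2 libraries these deviations mirror each other, so the check cannot exclude that the numbers pair the libraries. With the replicate block there were 0 mt and 0 MRP in pMT/VitD against Surgery, 0 mt and 14 MRP in pMT/VitD against VitD, 0 mt and 1 MRP in VitD against Control, and 0 mt and 1 MRP for any difference (2.03%, 15.7%, 7.55% and 6.28% of all genes).

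Leaving out each replicate in turn, counts ranged from 0 to 4 mt and 0 to 25 MRP in pMT/VitD against Surgery, 0 to 6 mt and 13 to 52 MRP in pMT/VitD against VitD, 0 to 2 mt and 0 to 4 MRP in VitD against Control, and 0 to 9 mt and 1 to 22 MRP for any difference. Medians of the mt set ranged from 0.21 to 0.81 in pMT against Surgery, from -0.55 to -0.013 in pMT against Control and from 0.020 to 0.59 in pMT/VitD against pMT. Where an arm kept 1 library, it was assumed to vary like the other groups.

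On simulated counts for pMT/VitD against Surgery, which held no length trend and no outlying library, 61% of genes changed 2-fold were recovered. Most differences of the members were smaller than 2-fold. Mrps28 gives no usable fold change because of the libraries where it is listed at 0.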
